A study of Mus musculus with 191 samples.

Results

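Alveolar type 1 cells are the thin, flat cells that line most of the gas-exchange surface of the lung, and 10 genes used as their markers (Ager, Aqp5, Hopx, Pdpn, Rtkn2, Clic5, Akap5, Cav1, Cav2 and Spock2) were followed across 26 chemicals given to mice. The members were chosen by name, and a probe set (a group of short probes that reads 1 transcript) was taken where the array's annotation gave it to a member and to no other gene. The members are 10 of 18194 genes and have 19 of 34958 probe sets with 1 symbol, and all 19 passed the filter on dim genes. Each member was read from its brightest probe set, which lay above the median of all values on each of the 191 arrays. No test of detection was run. RNA of whole lung lobe was measured, and fewer type 1 cells cannot be told apart from less of a transcript in each cell.

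Type 1 cells arise in the injured adult lung from alveolar type 2 cells, the cuboidal cells that make surfactant, and the step is accompanied by the spreading of the cell and the action of the YAP and TAZ cofactors with TEAD factors. Ager encodes RAGE, a receptor of the immunoglobulin family that sits at the basal face of the type 1 cell. Aqp5 encodes an apical water channel, and Pdpn encodes podoplanin, a membrane mucin. Hopx encodes a homeodomain protein that does not bind DNA, and Clic5 a protein tied to the cortical actin skeleton. Akap5 encodes an anchor of protein kinase A, Cav1 and Cav2 the coats of caveolae, the small pits of the plasma membrane, and Spock2 a secreted proteoglycan of the matrix. The caveolin genes are also active in endothelium, smooth muscle and fibroblasts, and podoplanin also marks lymphatic endothelium and mesothelium, so these members are not confined to 1 cell type.

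Affymetrix mouse expression arrays were run on RNA of the right lung lobe. The mice were female B6C3F1, the offspring of a cross of C57BL/6 and C3H that is common in cancer bioassays. Exposure began at 5 weeks of age and lasted 13 weeks, and lungs were taken at 18 weeks. Of the arrays, 133 came from 34 exposed groups and 58 from 14 control sets, with 3 to 5 arrays a group and 4 array batches, and these numbers limit the precision. Inhalation ran 6 h a day on 5 days a week, gavage on 5 days a week and feeding on 7 days a week. The inhaled agents used below were vanadium pentoxide at 2 mg/m3 (VANP), tetrafluoroethylene at 1250 ppm (TFEL), propylene glycol mono-t-butyl ether at 1200 ppm (PGBE), methylene chloride at 100, 500, 2000, 3000 and 4000 ppm (MECL) and naphthalene at 0.5, 3, 10, 20 and 30 ppm (NPTH). The agents gavaged in corn oil were 1,2,3-trichloropropane at 60 mg/kg (TCPN), iodoform at 93 mg/kg (IODO), coumarin at 200 mg/kg (COUM), 2,3-benzofuran at 240 mg/kg (BFUR), 1,2-dibromoethane at 62 mg/kg (DBET), 1,4-dichlorobenzene at 600 mg/kg (DCBZ) and trichlorofluoromethane at 3925 mg/kg (TCFM). N-methylolacrylamide at 50 mg/kg (MACR) was gavaged in distilled water, and 1,5-naphthalenediamine at 2000 ppm (NAPD), diazinon at 200 ppm (DIAZ), tris(2,3-dibromopropyl)phosphate at 1000 ppm (TDPP) and pentachloronitrobenzene at 8187 ppm (PCNB) were fed in chow. The other groups, which enter the counts over all exposures, inhaled ethylene oxide at 100 ppm (ETOX) or Tetrafluororethane, as the labels spell it, at 50000 ppm (TFEA), or were gavaged with benzene at 100 mg/kg in corn oil (BENZ) or 2-chloromethylpyridine hydrochloride at 250 mg/kg in water (CMPH). The rest were fed 1-amino-2,4-dibromoanthraquinone at 20000 ppm (ABDQ), 2,2-bis(bromomethyl)-1,3-propanediol at 1250 ppm (BBMP), 4-nitroanthranilic acid at 10000 ppm (NAAC), N-(1-naphthyl)ethylenediamine dihydrochloride at 2000 ppm (NEDD) or malathion (MALA) at 14800 ppm, given as 16000 in the sample titles. Control animals breathed air (sets coded ACO), were gavaged with corn oil (CCO, CornOil) or distilled water (WCO), or ate plain chow (FCO, RodentChow). Which control animals belong to which chemical is not labelled, so an exposed group was compared with all control sets that shared its vehicle and its array batch. Values are on a log scale taken as log2, and differences are exposed minus control, with each set weighing the same, ± SE. A gene is said to have risen or fallen where its adjusted p (limma, Benjamini-Hochberg over 13524 genes) stayed below 0.05, with 1 sign, in the comparison with each set, and the largest such p is given.

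Over all exposures few tests of the type 1 genes passed, at a rate near that over all genes. Of 340 tests (10 genes in 34 groups) 11 passed, or 3.24%, against 2.58% over all genes tested, with 5 rises and 6 falls. Over all genes 1.86% of tests were rises and 0.722% falls. The 11 calls fell in 5 exposures (VANP, TCPN, MACR, TFEL and IODO) and on 6 genes. Ager, Aqp5, Hopx and Pdpn had no call in any exposure, though each was called under some alternatives. Aqp5 was called higher in VANP under 5 of them, among them control arrays pooled (0.38, adjusted p = 0.0157). Pdpn was called lower in TFEL under 4, among them the arrays of the contrast alone (-0.31, adjusted p = 0.04), and Ager lower at 100, 500 and 2000 ppm methylene chloride under 3 each. The calls in VANP held under each alternative and with each array left out. Each of the other 9 was lost without at least 1 array, as given with each exposure.

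**Figure D1:**
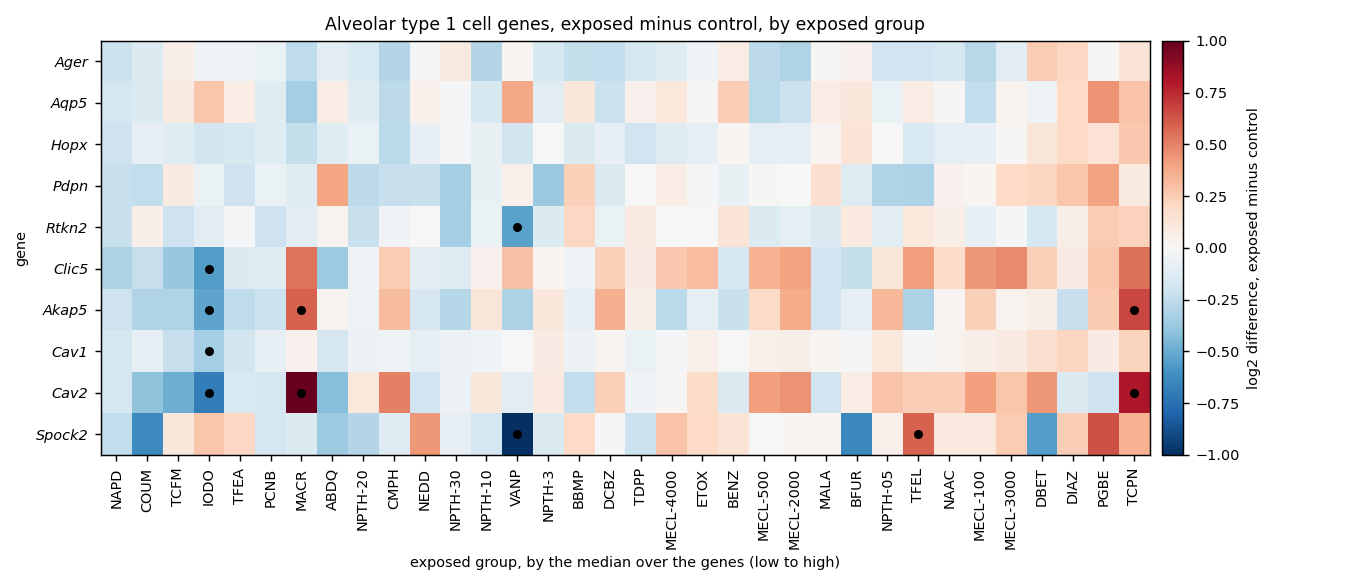
Log2 difference, exposed minus control, of the 10 alveolar type 1 cell genes (rows) in the 34 exposed groups (columns, by the median over the genes, from NAPD to TCPN), with colour from -1 to 1 and a black dot for each of the 11 calls. Dots sit on Rtkn2 and Spock2 in VANP and on Clic5, Akap5, Cav1, Cav2 and Spock2 in the other exposures, and the rows of Ager, Aqp5, Hopx and Pdpn have none.

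Vanadium pentoxide, an inhaled metal oxide dust, gave the calls that held best. Spock2 and Rtkn2 fell, while the other 8 type 1 genes did not pass the test, among them the classic surface markers Ager, Aqp5 and Pdpn. In the same lungs transcripts of type 2 cells and macrophages rose. The promoter of Spock2, the gene with the largest fall, is shown as the reference has it, from 250 bases before to 50 after the RefSeq start (GRCm38.p6, chr10:60106007-60106306, plus strand), with CACTTG on either strand, a core found in sites of the lung factor NKX2-1, in capitals (here read as CAAGTG).
Spock2: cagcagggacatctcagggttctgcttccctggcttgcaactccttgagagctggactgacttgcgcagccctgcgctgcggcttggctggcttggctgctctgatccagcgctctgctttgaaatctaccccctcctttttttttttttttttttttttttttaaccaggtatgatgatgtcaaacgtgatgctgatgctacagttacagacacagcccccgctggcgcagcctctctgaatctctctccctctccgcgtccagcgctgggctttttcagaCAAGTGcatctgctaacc
Spock2 is on chromosome 10 at 60106257 to 60135198, and the capitals begin 32 bases after its start.

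Spock2 had 2.00, 2.61, 2.26 and 2.27 in VANP lungs. It had 3.38, 3.49, 2.80 and 3.08 in ACO3, 3.29, 3.39, 3.76, 2.36 and 3.55 in ACO4, and 3.33, 3.46, 3.28, 3.70 and 3.17 in ACO5. The 4 exposed arrays lay below all control arrays but 1, and the groups overlapped through it. It was ACO4 replicate 4, at 2.36, below the highest VANP array at 2.61. The difference was -0.99 ± 0.15 (1.99-fold lower, 95% interval -1.29 to -0.69, adjusted p = 0.000315), where 1.31% of all genes fell and 3.02% rose in VANP. With each of 18 arrays left out it stayed between -1.10 and -0.90, with an adjusted p of at most 0.00504. The dimmer of its 2 probe sets fell as well (-0.46 ± 0.10, adjusted p = 0.0258, in a test over all probe sets where 0.948% fell).

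Rtkn2 had 1.81, 1.89, 1.93 and 1.84 in VANP lungs. It had 2.59, 2.48, 2.32 and 2.28 in ACO3, 2.31, 2.33, 2.67, 2.15 and 2.51 in ACO4, and 2.14, 2.29, 2.82, 2.58 and 2.20 in ACO5. Each exposed array lay below each control array. The difference was -0.54 ± 0.11 (1.45-fold lower, 95% interval -0.76 to -0.32, adjusted p = 0.00385), and with an array left out the adjusted p reached at most 0.0329. Rtkn2 has 1 probe set.

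Of the other members in VANP, Aqp5 was at 0.38 ± 0.11 (adjusted p = 0.136) with groups that did not overlap, Clic5 at 0.29 ± 0.17, Akap5 at -0.31 ± 0.15 and Hopx at -0.19 ± 0.09 (adjusted p = 0.6). After quantile normalization Hopx was lower (-0.29, adjusted p = 2.12e-05). Ager was at 0.02 ± 0.09 and Pdpn at 0.05 ± 0.12, both within the spread of the controls. The median over the 10 members was -0.06, against -0.01 over all genes.

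Of 21 other type 1 markers tested, 4 rose and 1 fell in VANP. Ndnf, for a secreted glycoprotein, rose by 1.13 ± 0.22 (adjusted p = 0.00255) and the basement membrane collagen gene Col4a4 by 0.62 ± 0.12, while the calcium-binding protein gene S100a6 was lower by -0.54 ± 0.13 (adjusted p = 0.0231). Without 1 array in turn the rises of this list numbered 1 to 4, and Col4a4 and S100a6 lost their calls in 1 and 7 of 18 cases. A list of 12 YAP and TEAD regulators and targets also held the factor genes Nkx2-1 and Gata6. Of this list 1 gene fell, the target Ankrd1 (-0.94 ± 0.18, adjusted p = 0.00617), a call lost with the arrays of the contrast alone (adjusted p = 0.0922). Cftr, the chloride channel gene, rose by 0.99 ± 0.10 (adjusted p = 5.14e-10), 1 of 2 rises among 9 genes of fluid transport.

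Type 2 cell markers rose with the fall of Spock2 and Rtkn2. Of 14 tested, 9 rose and 0 fell, with a median of 0.52, among them the surfactant protease gene Napsa (0.97 ± 0.12, adjusted p = 3.86e-07), the factor gene Etv5 (0.85 ± 0.16) and the desaturase gene Scd1 (0.81 ± 0.12). The mean over the list was 5.23 to 5.41 in VANP lungs, against 4.59 to 4.93 in the air controls, with no overlap. Of 9 macrophage markers 4 rose and 0 fell, with the protease gene Ctsk at 2.16 ± 0.10 (adjusted p = 8.76e-33), and the list mean was 2.12 to 2.26 in VANP lungs, against 1.37 to 1.95 in controls. Lgals3, which marks macrophages and also cells between type 2 and type 1, rose by 0.82 ± 0.13 (adjusted p = 0.000541), and Tm4sf1 of the same list fell (-0.58 ± 0.12, adjusted p = 0.00486). Of 18 endothelial markers 0 rose and 2 fell, with Kdr at -0.55 ± 0.12, and after quantile normalization 8 fell. Of 11 smooth muscle and fibroblast markers 2 fell, with the factor gene Tcf21 at -0.75 ± 0.13 (adjusted p = 0.00122). The part of these cell types in the change of Spock2 and Rtkn2 was not tested. The beta-actin 3' minus 5' value, lower in less degraded RNA, was 0.56 to 0.67 in VANP and 0.54 to 0.98 in its controls.

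**Figure D2:**
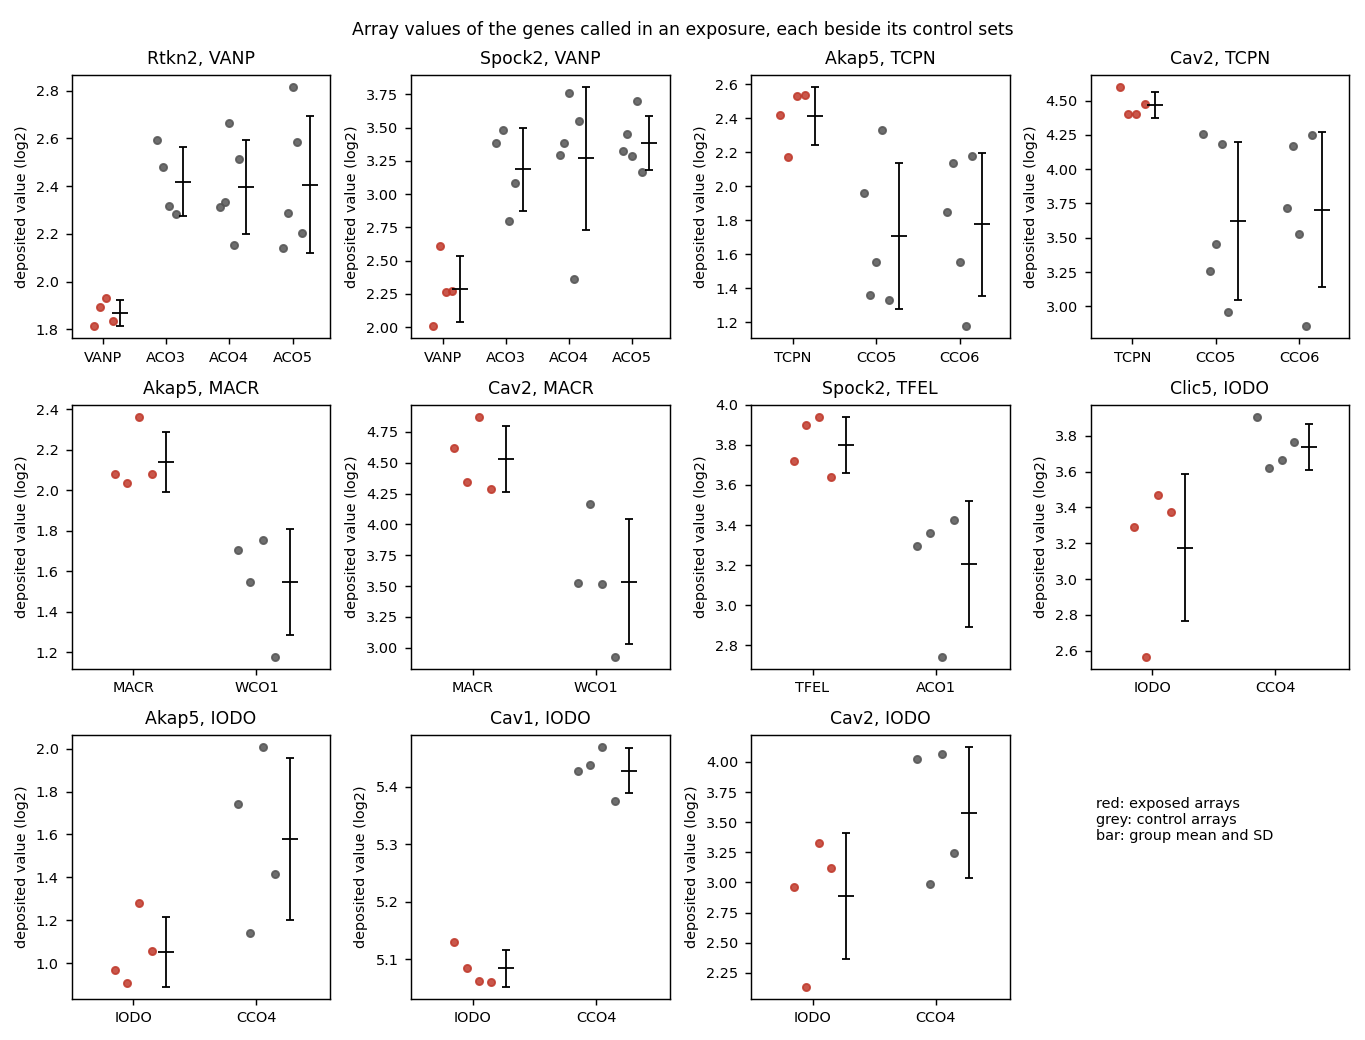
Deposited log2 values of each array for the 11 calls, 1 panel a gene and exposure, with exposed arrays (red) left of their control sets (grey) and the group mean with its SD beside the points. In the Rtkn2 panel all 4 VANP arrays, at 1.81 to 1.93, lie below all 14 control arrays, and in the Cav2 panels the controls spread more widely than in most others.

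1,2,3-Trichloropropane, a chlorinated solvent, was the exposure with the highest median over the type 1 genes (0.28, against 0.07 over all genes), and all 10 members were above the controls. Cav2 and Akap5 rose. Quantile normalization ended both calls, with the median over the members at 0.11 and that over all genes at -0.05. With the arrays of the contrast alone both calls were lost as well (adjusted p = 0.168 for Akap5 and 0.189 for Cav2), and 14 of all genes were called. The promoters of Cav2 (GRCm38.p6, chr6:17280935-17281234, plus strand) and Akap5 (chr12:76324641-76324940, plus strand) are shown because both genes had calls in TCPN, MACR and IODO, with CACTTG on either strand in capitals.
Cav2: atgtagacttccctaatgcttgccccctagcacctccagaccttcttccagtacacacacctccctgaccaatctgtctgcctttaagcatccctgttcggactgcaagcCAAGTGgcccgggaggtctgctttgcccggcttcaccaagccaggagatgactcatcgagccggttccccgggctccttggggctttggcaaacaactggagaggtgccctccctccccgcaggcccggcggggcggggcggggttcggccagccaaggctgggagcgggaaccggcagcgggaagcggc
Akap5: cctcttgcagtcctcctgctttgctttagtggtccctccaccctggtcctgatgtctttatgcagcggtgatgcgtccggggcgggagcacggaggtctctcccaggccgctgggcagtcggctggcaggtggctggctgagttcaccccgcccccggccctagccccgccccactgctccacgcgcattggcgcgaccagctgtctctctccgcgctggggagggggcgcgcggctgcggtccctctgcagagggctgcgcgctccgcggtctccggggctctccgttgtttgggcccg
Cav2, on chromosome 6 at 17281185 to 17289130, lies beside Cav1 (17306335 to 17341328), and its match begins 140 bases before its start. Akap5 is on chromosome 12 at 76324617 to 76334517 and its window holds neither this motif nor GGAATG, a core of TEAD sites. This window begins inside the gene as given, so the bases before the gene were not searched.

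Of 11 promoter windows of 9 members in RefSeq's table (Rtkn2 is not listed there), 3 held CACTTG on either strand (Cav2, Spock2 and 1 of 2 windows of Hopx), and 0 held GGAATG. Over all 32851 windows of this length 13.6% held CACTTG and 14.7% held GGAATG. The motifs share no letters in these windows, and a match describes only the letters. The windows of Ager and Clic5, like that of Akap5, begin inside the gene as given, and the bases before these genes were not searched.

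Cav2 had 4.60, 4.40, 4.40 and 4.47 in TCPN lungs. It had 4.26, 3.25, 3.45, 4.19 and 2.96 in CCO5, and 3.72, 4.17, 3.53, 2.85 and 4.25 in CCO6. The exposed arrays lay close together above each control array. The difference was 0.81 ± 0.22 (1.75-fold, adjusted p = 0.0288), where 7.73% of all genes rose and 1.64% fell. It lost its call without any 1 of 8 of the 14 arrays (each TCPN array, CCO6 replicate 1, 3 or 4, CCO5 replicate 5), at 0.70 to 0.83 with an adjusted p of 0.0516 to 0.196. Its other probe set, which is dim throughout the series (mean -0.36), was at 0.06 ± 0.05 (adjusted p = 0.634).

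Akap5 had 2.42, 2.17, 2.53 and 2.54 in TCPN lungs. It had 1.96, 1.36, 1.56, 2.33 and 1.33 in CCO5, and 1.85, 2.13, 1.55, 1.18 and 2.18 in CCO6. The groups overlapped through 2 control arrays. The difference was 0.67 ± 0.16 (1.59-fold, adjusted p = 0.0154), lost without CCO6 replicate 4 (adjusted p = 0.138), and all 3 of its probe sets rose in a test over all probe sets, where 11.1% rose. Clic5 was at 0.55 ± 0.18 (adjusted p = 0.0578), and 3 of its 4 probe sets rose in that test. Its groups all but touched, with 4.422 the lowest value in TCPN and 4.421 the highest in the controls. Of the other type 1 markers 6 of 21 rose and 0 fell, among them the semaphorin genes Sema3e (0.79 ± 0.15, adjusted p = 0.00693) and Sema3a (0.60 ± 0.15) and the adaptor gene Lmo7 (0.60 ± 0.14). After quantile normalization 0 of the 21 rose, and without 1 array in turn 0 to 7. Markers of other cells rose too, 2 of 9 of club cells (Ces1d 0.35 ± 0.10), 1 of 10 of ciliated cells (Foxj1 0.56 ± 0.14), 1 of 9 of macrophages (Mrc1 0.83 ± 0.19), 1 of 18 of endothelium (Calcrl 0.66 ± 0.17), 1 of 5 of mesothelium (Lrrn4 0.66 ± 0.17) and 2 of 6 of the cell cycle (Top2a 0.56 ± 0.12, Cdk1 0.50 ± 0.13), with 0 falls in these lists. Of the 16 list genes that the naming rule gave for TCPN, 1 was called after quantile normalization, and the part of these cells in the rises of Cav2 and Akap5 was not tested. The SD of all values of an array was 1.33 to 1.38 in TCPN and 1.07 to 1.40 in its controls, and RNA integrity numbers were 9.4 to 9.6 in TCPN and 6.7 to 8.8 in its controls. With the array SD as a covariate, an alternative chosen after seeing the data, Cav2 was at 0.64 (adjusted p = 0.0986) and Akap5 at 0.45 (adjusted p = 0.102).

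N-methylolacrylamide, an acrylamide derivative, went with rises of the same pair, Cav2 and Akap5, while 6 of the 10 members lay below the controls. Cav2 had 4.62, 4.34, 4.87 and 4.29 in MACR lungs, against 3.53, 4.17, 3.52 and 2.93 in WCO1. The difference was 1.00 ± 0.26 (1.99-fold, adjusted p = 0.0312), the highest of any member in any exposure, where 4.19% of all genes rose and 1.04% fell. Akap5 had 2.08, 2.04, 2.36 and 2.08 in MACR lungs, against 1.71, 1.55, 1.75 and 1.18 in WCO1, a difference of 0.59 ± 0.19 (adjusted p = 0.0466). In both genes the groups did not overlap. Both calls were lost without MACR replicate 1 or 3 or WCO1 replicate 1, 3 or 4 (adjusted p = 0.0624 to 0.252 over both), and with the arrays of the contrast alone (adjusted p = 0.0535). The dim other probe set of Cav2 was at 0.01 (adjusted p = 0.94). With the probe sets of a gene averaged, Cav2 kept its call in MACR (0.50, adjusted p = 0.0391) and Akap5 did not.

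Clic5 was at 0.54 ± 0.22 in MACR (adjusted p = 0.0945), also without overlap. Aqp5 (-0.34 ± 0.14, adjusted p = 0.111) and Ager (-0.26 ± 0.11, adjusted p = 0.112) lay on the other side. Of 21 other type 1 markers 3 rose and 0 fell (Ndnf 0.91 ± 0.27, Sema3e 0.65 ± 0.18, Sema3a 0.61 ± 0.18), and of 6 caveolar genes 1 rose, Cavin2 (0.70 ± 0.17, adjusted p = 0.0312), whose protein helps to shape caveolae. Of 18 endothelial markers 2 rose and 0 fell (Calcrl 0.74 ± 0.21, Ednrb 0.66 ± 0.17), with a list median of -0.27, and after quantile normalization 4 rose and 5 fell. Of 9 macrophage markers 1 rose, the receptor gene Mrc1 (0.74 ± 0.23), with a list median of -0.07. The part of these cells in the result was not tested. None of the 11 list genes named for MACR kept its call with every array left out.

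Iodoform, a disinfectant, showed the opposite direction for this set of genes. Clic5, Akap5, Cav1 and Cav2 fell, in an exposure where 11.9% of all genes fell and 15.6% rose. Cav1 had 5.13, 5.08, 5.06 and 5.06 in IODO lungs, against 5.43, 5.44, 5.47 and 5.38 in CCO4, with a gap between the groups larger than the range within either. Its difference was -0.34 ± 0.13 (1.27-fold lower, adjusted p = 0.0406). Cav2 had 2.96, 2.13, 3.33 and 3.12 in IODO lungs, against 4.02, 2.99, 4.06 and 3.25 in CCO4, and the groups overlapped. It was lower by -0.69 ± 0.26 (adjusted p = 0.0361), while its other probe set rose (0.20 ± 0.06, adjusted p = 0.0125, over all probe sets, where 11.8% rose), but that probe set is dim, with a mean of -0.36 near the overall median and above it on 120 of 191 arrays.

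Akap5 had 0.97, 0.91, 1.28 and 1.06 in IODO lungs, against 1.74, 1.14, 2.01 and 1.42 in CCO4 (-0.52 ± 0.19, adjusted p = 0.0325). Clic5 had 3.29, 2.57, 3.47 and 3.38 in IODO lungs, against 3.91, 3.62, 3.66 and 3.76 in CCO4 (-0.56 ± 0.22, adjusted p = 0.0418). The groups overlapped for Akap5 and not for Clic5. The 4 calls held in 2 (Cav1), 3 (Clic5), 4 (Akap5) and 4 (Cav2) of 8 fits with 1 array left out, and all were lost with the arrays of the contrast alone (adjusted p = 0.381). Without any 1 array the number of all genes called in IODO ran from 2 to 5364. With the probe sets of a gene averaged, Akap5 (-0.57, adjusted p = 0.0224) and Cav1 (-0.34, adjusted p = 0.0353) kept their calls. Clic5 and Cav2 lost theirs in that setting.

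Of the other type 1 markers 0 rose and 3 of 21 fell in IODO (the collagen gene Col4a3 -0.60 ± 0.18, Lmo7 -0.56 ± 0.17, Sema3a -0.50 ± 0.18). Of 6 caveolar genes 4 rose, among them Ehd2 (0.54 ± 0.17) and Cavin3 (0.36 ± 0.12), and 1 fell, Cavin2 (-0.47 ± 0.17). Of 18 endothelial markers 5 rose and 0 fell, among them Tie1 (0.69 ± 0.17, adjusted p = 0.00634), with a list mean of 3.10 to 3.57 in IODO lungs, against 2.84 to 3.33 in controls, and the groups overlapped. Of the macrophage markers 0 rose and 1 fell, Mrc1 (-0.76 ± 0.23), with a list median of -0.06. The part of these cells in the falls was not tested. Of the 27 list genes that the naming rule gave for IODO, 0 kept their call with every array left out, and 0 were called with the arrays of the contrast alone. Beta-actin 3' minus 5' was 0.26 to 0.49 in IODO lungs, against 0.56 to 0.94 in CCO4, without overlap.

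Spock2 rose with tetrafluoroethylene, a monomer gas. It had 3.72, 3.90, 3.94 and 3.64 in TFEL lungs, against 3.30, 3.36, 2.74 and 3.42 in ACO1, with no overlap. The difference was 0.59 ± 0.19 (1.51-fold, adjusted p = 0.0374), where 5.65% of all genes rose and 1.48% fell. Both its probe sets rose in a test over all probe sets, where 9.78% rose. It lost its call without TFEL replicate 2 or 3 or ACO1 replicate 3 (0.44 to 0.56, adjusted p = 0.112 to 0.259). Pdpn was at -0.31 ± 0.14 (adjusted p = 0.175) and Ager at -0.20 ± 0.11 (adjusted p = 0.286), both without overlap of the groups.

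Beside Spock2, 5 of 11 genes of the alveolar basement membrane rose in TFEL and 0 fell, among them Col4a2 (0.81 ± 0.18, adjusted p = 0.0018), agrin (Agrn, 0.59 ± 0.15) and perlecan (Hspg2, 0.46 ± 0.13). Of the list of 12 YAP and TEAD regulators and targets 3 rose. They were Yap1 (0.36 ± 0.10) and, listed as regulators, the factor genes Nkx2-1 (0.43 ± 0.09, adjusted p = 0.00111) and Gata6 (0.36 ± 0.10). No target on the list was called. Vegfa, which type 1 cells secrete towards capillaries, rose by 0.60 ± 0.15, 1 of 3 rises among 21 other type 1 markers. Of 18 endothelial markers 4 rose and 0 fell, with a list mean of 3.18 to 3.36 in TFEL lungs, against 2.84 to 3.15 in controls, and the part of these cells was not tested. Without 1 array in turn the rises numbered 2 to 5 for the basement membrane and 1 to 3 for the YAP and TEAD list. They numbered 0 to 4 for the other type 1 markers and 0 to 5 for endothelium. Of the genes named here Col4a2 and Nkx2-1 kept their calls throughout. Beta-actin 3' minus 5' was 0.19 to 0.26 in TFEL lungs and 0.49 to 0.81 in ACO1, again without overlap.

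Over all exposures the group means of Spock2 ran from 2.29 in VANP to 3.92 in PGBE, against 2.84 to 3.47 over the control sets. In PGBE it had 3.77, 3.85, 4.13 and 3.93, each above the 14 air control arrays, whose highest was 3.76. The difference of 0.64 ± 0.15 missed the threshold (adjusted p = 0.0557), with 0.673% of all genes called. In the test over all probe sets, where 1.23% rose, both of Spock2 rose in PGBE (0.64 and 0.55, adjusted p = 0.0461 and 0.0252). Without ACO5 replicate 4 Spock2 passed (0.67, adjusted p = 0.04996). In COUM it was at -0.63 ± 0.16 (adjusted p = 0.0808), in BFUR at -0.64 ± 0.22 (adjusted p = 0.101) and in DBET at -0.55 ± 0.16 (adjusted p = 0.205), with 5.69%, 1.86% and 2.67% of all genes called. It passed in COUM and BFUR on leaving out COUM replicate 1, CCO3 replicate 3 or 4, or BFUR replicate 2 or 3 (-0.88 to -0.68, adjusted p = 0.0228 to 0.04). In BFUR the low mean came mainly from replicate 1, at 1.81, beside 3.01 and 3.12, against 3.26 to 3.33 in CornOil.

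Ager, Aqp5, Hopx and Pdpn, the surface and nuclear markers without a call, also varied among exposures. The group mean of Ager ran from 6.27 in DCBZ to 6.93 in DBET, against 6.504 to 6.82 over the control sets. Aqp5 ran from 3.70 in MACR to 4.56 in PGBE, against 3.90 to 4.22. Hopx ran from 5.54 in TDPP to 6.04 in PGBE, against 5.67 to 5.94. PGBE also held the highest mean of Pdpn, 3.67, against 3.04 to 3.43 over the control sets, and the lowest was 2.90 at 3 ppm naphthalene. In PGBE Aqp5 was at 0.45 ± 0.11 (adjusted p = 0.0702) with groups that did not overlap, and Pdpn at 0.40 ± 0.12 (adjusted p = 0.13) with groups that overlapped.

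The lowest median over the type 1 genes was in NAPD (-0.21, against 0.00 over all genes). All 10 members lay below the controls there, from -0.31 (Clic5) to -0.17 (Cav2), and 0 passed, with 1.09% of all genes called and 0 of 10 members, against 860 of the 13524 genes, at an unadjusted p under 0.05 by limma. Ager had 6.44, 6.35 and 6.32 in NAPD lungs, with a mean of 6.58 in RodentChow, and its difference was within -0.46 to 0.03 (95% interval). Of 6 B and plasma cell markers 3 rose in NAPD, with the antibody joining chain gene Jchain at 3.06 ± 0.54 (adjusted p = 1.56e-05) and a list mean of 2.12 to 2.84 in NAPD lungs, against 0.65 to 1.34 in RodentChow. The part of these cells in the lower values of the type 1 genes was not tested. Beta-actin 3' minus 5' was 0.23 to 0.31 in NAPD and 0.51 to 0.64 in its controls. In PCNB all 10 members lay below the controls as well, from -0.21 (Akap5) to -0.07 (Ager), with 0.00739% of all genes called. The median was -0.19 in COUM and -0.17 in TCFM, and at the other end 0.26 in PGBE and 0.20 in DIAZ. In each of these 0 members were called by limma, where 0.488% (TCFM) and 0% (DIAZ) of all genes were, and 1 (COUM), 0 (TCFM), 3 (PGBE) and 0 (DIAZ) members were at an unadjusted p under 0.05. At that threshold stood 2344 (COUM), 2858 (TCFM), 1506 (PGBE) and 1524 (DIAZ) of the 13524 genes.

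Control sets that share vehicle and batch were compared with each other, and limma called 0 of the members in 5 comparisons. CCO2 against CCO3 had the largest differences, with Aqp5 at 0.32, Spock2 at 0.31, Ager at 0.28 and Hopx at 0.27. All of these but Spock2 were at an unadjusted p under 0.05, as were 758 of the 13524 genes. By adjusted p 0.0296% of all genes were called there. In the other 4 comparisons 0% of all genes were called. At an unadjusted p under 0.05 these had 0 members, against 282 to 394 of the 13524 genes.

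Methylene chloride and naphthalene, both inhaled at 5 concentrations, allowed a test against concentration within the exposed arrays of a series. Values are log2 changes along the fitted line over the range of concentrations. With methylene chloride (21 arrays) Aqp5 rose by 0.38 ± 0.09 (adjusted p = 0.00178), while Akap5 (-0.43 ± 0.11, adjusted p = 0.00545) and Cav2 (-0.34 ± 0.08, adjusted p = 0.0018) fell. Over all genes 27.2% rose and 15.1% fell with concentration, so 1 rise and 2 falls among 10 are near the background. The median over the members was 0.06, against 0.04 over all genes.

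By concentration, Akap5 averaged 1.82 ± 0.17 at 100 ppm, 1.77 ± 0.12 at 500, 1.95 ± 0.17 at 2000, 1.61 ± 0.17 at 3000 and 1.30 ± 0.20 at 4000 ppm (SD, n = 5 at 100 ppm and 4 at the others). The lower means were those at 3000 and 4000 ppm. Cav2 averaged 4.16 ± 0.07, 4.16 ± 0.11, 4.20 ± 0.11, 4.03 ± 0.03 and 3.76 ± 0.20 from 100 to 4000 ppm, and Aqp5 3.87 ± 0.17, 3.84 ± 0.18, 3.90 ± 0.07, 4.14 ± 0.16 and 4.22 ± 0.19. The 14 air control arrays averaged 1.57 ± 0.33 for Akap5, 3.76 ± 0.33 for Cav2 and 4.11 ± 0.18 for Aqp5, so the means of Cav2 and Aqp5 at 4000 ppm were nearer to the air controls than those at 100 ppm. With the air controls added at 0 ppm none of the 3 trends passed (Aqp5 0.13, Akap5 -0.16, Cav2 0.04).

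With naphthalene (20 arrays) Ager rose by 0.26 ± 0.07 (adjusted p = 0.00353), and Akap5, Cav1, Cav2, Clic5 and Rtkn2 fell, by 0.53 ± 0.09 (Akap5, adjusted p = 0.000113) to 0.17 ± 0.05 (Cav1, adjusted p = 0.0122). Over all genes 9.08% rose and 31.7% fell, and the median was -0.07, against -0.14 over the members. Akap5 averaged 1.91 ± 0.06 at 0.5 ppm, 1.69 ± 0.06 at 3, 1.70 ± 0.22 at 10, 1.53 ± 0.25 at 20 and 1.29 ± 0.08 at 30 ppm (SD, n = 4 each). All 4 arrays at 30 ppm, at 1.17 to 1.35, lay below all 4 at 0.5 ppm, at 1.83 to 1.97. Beta-actin 3' minus 5' was 0.65 to 0.91 over the arrays at 0.5 and 3 ppm and 0.43 to 0.61 over those at 10, 20 and 30 ppm, without overlap, and its part in the trends was not tested. Ager averaged 6.83 ± 0.08 at 30 ppm, against 6.54 ± 0.08 at 0.5 ppm and 6.74 ± 0.14 in the 14 air controls. With the air controls at 0 ppm only Rtkn2 of the 10 passed, and Akap5 was at -0.30 (adjusted p = 0.0631). Against air controls directly, 0 members were called at any concentration of either agent, where 0.248% (methylene chloride) and 1.09% (naphthalene) of all tests over the 5 concentrations were calls.

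**Figure D3:**
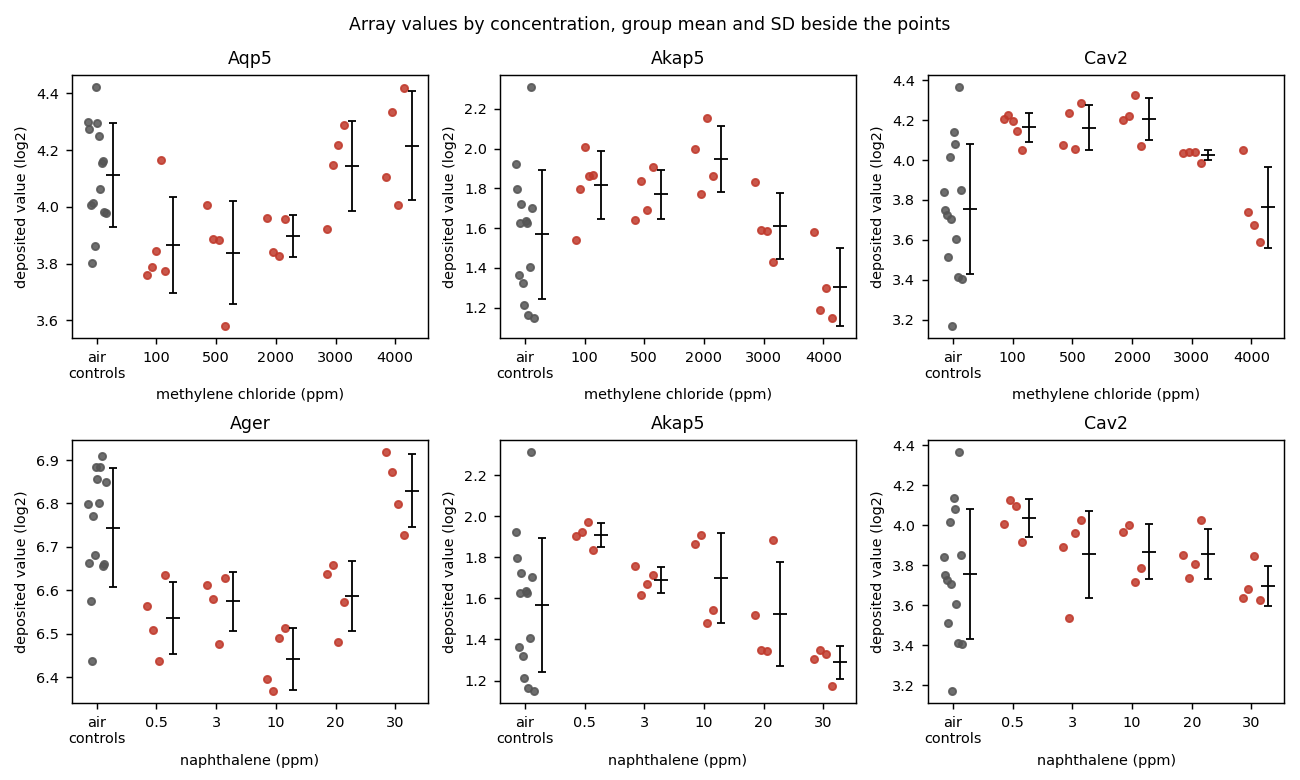
Deposited log2 values of each array by concentration in ppm, with the 14 air control arrays at the low end, for Aqp5, Akap5 and Cav2 with methylene chloride (upper row) and Ager, Akap5 and Cav2 with naphthalene (lower row), and group means with SD beside the points. Akap5 at 30 ppm naphthalene lies at 1.17 to 1.35, within the range of the air controls (1.15 to 2.31).

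Among arrays of the same group some of the 10 genes varied together. Correlations were computed on deviations from group means over all 191 arrays, for 45 pairs, with 100000 permutations within groups. Ager and Hopx had r = 0.839 (rho = 0.776, permutation p = 1e-05, adjusted 2.25e-05, 0.576 to 0.959 within the 4 batches). Clic5 and Cav2 had r = 0.787 (rho = 0.744, permutation p = 1e-05, adjusted 2.25e-05, 0.563 to 0.886 within batches). Both p are the smallest these permutations can give, and r was 0.81 and 0.771 without the 2 arrays farthest from the median. The permutations do not separate variation of a pair from variation shared by a whole array. Akap5 and Cav2 (r = 0.746, rho = 0.71) and Clic5 and Cav1 (r = 0.737, rho = 0.657) belonged with Clic5 and Cav2, the same 4 genes that fell together in IODO. Of the 45 pairs 19 had r above 0.5 and 8 lay below 0, and the median was 0.379. The share over pairs of all genes is not given here. For each member the likest gene lay outside the 10, as Rps29 for Ager (r = 0.884) and Dynlt3 for Cav2 (r = 0.962). Such joint variation was therefore not particular to the members. Aqp5 and Cav2 ran against each other (r = -0.354, rho = -0.343, permutation p = 4e-05, adjusted 7.83e-05), but within batches r ran from -0.568 to 0.59.

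**Figure D4:**
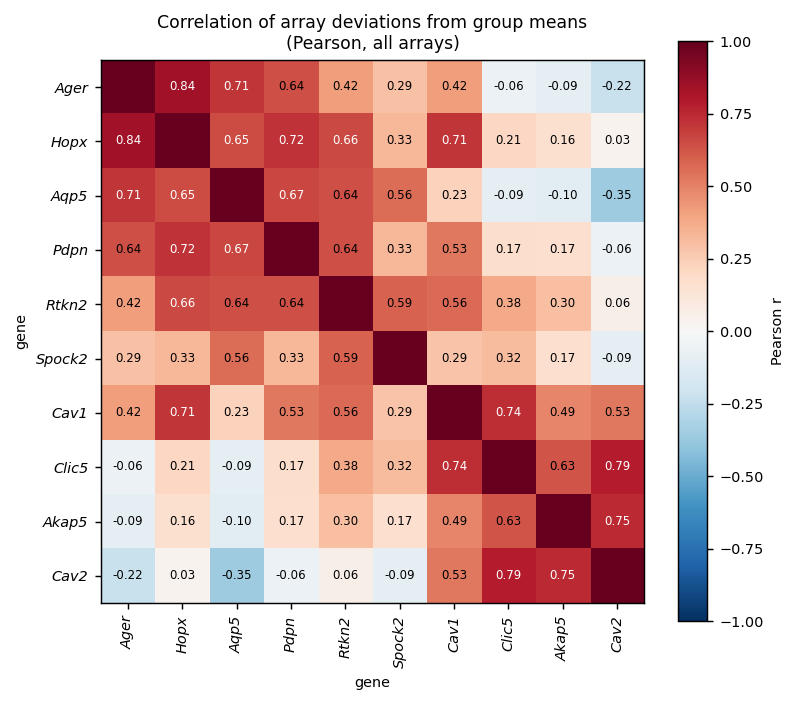
Pearson correlation between the 10 genes of array deviations from group means over 191 arrays, with colour from -1 to 1. A block of high values joins Ager, Hopx, Aqp5, Pdpn and Rtkn2 (Ager with Hopx 0.84), another joins Clic5, Akap5, Cav2 and Cav1 (Clic5 with Cav2 0.79), and Aqp5 with Cav2 is the lowest at -0.35.

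The members also differed in how much they varied within groups. The within-group SD was 0.368 for Cav2 (98.6th percentile of all genes), 0.308 for Clic5 (96.9th), 0.271 for Akap5 (94.6th) and 0.271 for Spock2 (94.4th). It was 0.155 for Ager and 0.159 for Hopx, near the median of 0.147 over all genes. Cav2, Clic5, Akap5 and Spock2, all with calls, thus spread most among the members. Rtkn2 (percentile 77.2) and Cav1 (72.1), also called, spread less than Aqp5 (79.8) and Pdpn (80.3), which had no call. Deviations of the members went with the SD of all values of the array, with r from 0.226 (Cav2) to 0.746 (Rtkn2) over 191 arrays (permutation p = 0.0233 and 1e-05, adjusted over 20 relations 0.0333 and 3.33e-05, rho = 0.21 and 0.69). The 20 relations also held those of the members with the beta-actin 3' minus 5' value, whose r are not given here. The part of either measure in the joint variation was not tested.

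As a description over the same 191 arrays, the genes most like the mean of the standardised members were Ahnak (r = 0.904), Ctnna1 (0.883), Msn (0.871), Rtn3 (0.865), Wnk1 (0.859), Sec14l3 (0.85), Ctnnb1 (0.848) and Ywhae (0.847), where the median over all genes was 0.309. Ahnak, which encodes a giant protein beneath the plasma membrane, is itself on the list of other type 1 markers. By member, the likest gene was Rps29 for Ager (0.884), Rpl37a for Hopx (0.897), Myo1c for Aqp5 (0.917), Vdac2 for Pdpn (0.835) and Msn for Rtkn2 (0.854). It was Twsg1 for Clic5 (0.933), Pja2 for Akap5 (0.878), Dstn for Cav1 (0.912), Dynlt3 for Cav2 (0.962) and Lamb3 for Spock2 (0.82).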

How the data were processed

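Lung RNA of exposed and control mice was hybridised to 1-colour arrays after RNAlater storage, Trizol extraction and RNeasy purification, per the labels' protocols. The deposited series matrix holds values on a log scale, taken as log2. The base, the background correction and the normalization are not given in the sources used here, and every fold rests on base 2. Array means differed by less than 0.01 and array SDs ran from 1.01 to 1.44, so arrays share a centre but not 1 distribution. Whether the authors adjusted for batches is not stated, and scanner files were not analysed here.

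Of 45101 probe sets, 34958 named 1 gene in the array's annotation. A gene was read from its brightest probe set, and 13524 genes entered the tests, those with 3 or more arrays over the overall median of -0.386. Group means over all 191 arrays were modelled with limma 3.58.1 in R 4.3.3, and trends with the exposed arrays of each series. Correlations were computed in Python 3.11.15 with numpy 2.4.6. The comparisons of MACR, TCPN and VANP with their controls and fits of the 2 concentration series were tried on simulated data. The correlation and promoter code was not.

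Members and marker lists were chosen with earlier results of these data known. All members were named, with, of each other list, at most 3 called genes of the largest change. The rule took exposures with a called member, or with a median over the members among the 3 highest or 3 lowest. Not every gene it gave is in the text. Of the alternatives, the array SD as covariate and the highest against the lowest concentration were added after seeing the data. Promoters are from RefSeq (GRCm38.p6). Arrays of a group are labelled as separate animals where the labels number them. RNA integrity numbers (6.1 to 9.6) were not given for 32 arrays.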

Additional observations from a re-analysis of the deposited data

Results flagged for a closer look

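In 73 tests of a gene in a group, 3 arrays stood apart from the rest of their group by the gap to the nearest array as a share of the group's range, a measure that chance passes in about 1 of 20 groups, so 3 of 73 is no more than chance gives. Akap5 in MACR replicate 3 was at 2.36, with the other 3 arrays at 2.04 to 2.08. Without it the difference from WCO1 no longer passed. Aqp5 in the 100 ppm methylene chloride group, replicate 4, was at 4.16, with the other 4 arrays at 3.76 to 3.84. Cav2 in the 3000 ppm methylene chloride group, replicate 4, was at 3.99, with the other 3 arrays at 4.04, a small gap in a group of narrow range.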

How the results depend on the processing

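Against 5 rises and 6 falls of the members over all exposures, the counts were 7 and 15 after quantile normalization within the array batch, 5 and 4 without the filter, and 6 and 4 with probe sets of a gene averaged. They were 1 and 3 with the arrays of the contrast alone, 12 and 13 with control sets pooled, 12 and 12 with any 1 set, and 20 and 21 with all controls of the batch pooled. They were 6 and 6 without arrays of an RNA integrity number under 7, 22 and 38 with array weights, and 6 and 14 with the array SD as covariate. Calls over all genes moved with the setting too. In MACR they went from 708 to 7194 with array weights and to 3418 after quantile normalization. In IODO they went from 3708 to 0 with the arrays of the contrast alone. The share over all exposures at these settings is not given here. Without each array in turn the rises ran from 3 to 6 and the falls from 2 to 7. Spock2 and Rtkn2 in VANP were called under each of these settings and against ACO3 alone. Cav2 in IODO was reversed in its other probe set (0.20), which lies near the overall median.

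Of the 10 members, 3 had a trend with methylene chloride, against 1 on log10 concentration, 0 with air controls at 0 ppm (Cav2 then at 0.0381, reversed), 6 after quantile normalization and 1 for the highest against the lowest concentration. With naphthalene 6 had a trend, against 1 with air controls and 1 for the highest against the lowest. Without each array these counts ran from 3 to 5 and from 3 to 6. In the main fit 27.2% of all genes rose and 15.1% fell with methylene chloride, and 9.08% rose and 31.7% fell with naphthalene. The shares over all genes under the alternatives are not given here, so these counts are not read as results about the members. Without NPTH-30 replicate 4 Rtkn2, Clic5 and Cav2 lost their trends. Over all genes in TCPN, 1045 rose and 222 fell, against 84 and 122 after quantile normalization. The cause of these changes was not tested. No paired analysis was possible because the replicate numbers follow accession order and pair no samples. Arrays give no read depth, and their number limits the precision.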
